A study of Rattus norvegicus with 24 samples.

Results

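Sham needling was set against hepatectomy alone in the amygdala's central nucleus (CEA). The comparison used the 3 CEA libraries labelled SEA and the 3 labelled HT, 6 of the 24 libraries in the series, chosen by their titles and not by any measured value. Both groups were young male Sprague-Dawley rats of no stated transgene or mutation that lost part of the left liver lobe under isoflurane. The SEA rats also had needles placed on 1 side at 2 hind limb acupoints, Zusanli (ST36) and Sanyinjiao (SP6), a day before and right after surgery, without connection to the stimulator. The HT rats were held awake in the same restraint for the same time, and tissue was taken a day after the last session. The remaining groups were the unoperated normal control (NC) and hepatectomy with electroacupuncture (EA), each with 3 libraries, and the same 4 groups of the hypothalamic paraventricular nucleus (PVN). No group received needles without surgery, so the data describe needling on top of the operation. The methods count 12 rats over the 4 groups. They say that, as 1 rat gave limited tissue, brain samples did not come from the same animal but were of 1 batch. They do not say which samples this covers and do not tie a library to a rat, and the 24 libraries outnumber the 12 rats. Whether the CEA and PVN libraries of a group came from the same rats therefore cannot be told, and p-values measure the spread between these libraries.

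The CEA is the main output nucleus of the amygdala. Nearly all of its neurons release GABA, and classes of them are marked by protein kinase C delta (Prkcd), somatostatin (Sst) or corticotropin-releasing hormone (Crh). It receives pain and visceral input and acts on the brainstem and hypothalamus in fear, pain and stress responses, among them the hormonal stress axis that surgery activates.

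Total counts were 16061386 to 18202020 in the HT libraries and 13152772 to 17026144 in the SEA libraries. Levels are given as CPM, counts scaled to library size after TMM normalization, on which a single count was worth 0.0578 to 0.0742. Where no read was counted, up to 3 counts (0.173 to 0.223 CPM) cannot be told from none, by counting error alone. Across the genes tested, log2 CPM profiles correlated at 0.943 to 0.978 between libraries of the same group and at 0.952 to 0.976 between the groups (genes are not independent replicates). The first principal component held 37.2% of the variance and set HT replicate 2 (59.8) and HT replicate 1 (-40.6) farthest apart, with the SEA libraries at -26.4 to 14.4. HT replicate 2 and SEA replicate 2 stood apart in gene groups described below, and values without them are given beside the results they moved most. The mitochondrial genome took 12.7% ± 2.10 of counts in HT and 11% ± 1.06 in SEA (SD, n = 3), a difference that did not pass a two-sided exact permutation test (p = 0.3), for which the smallest possible p is 0.1. The difference of -1.67 percentage points was -2.86 without HT replicate 2 and -0.84 without HT replicate 3.

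Whether sham needling on top of hepatectomy moved gene expression, against hepatectomy alone, was asked of 16393 genes. None passed the threshold (edgeR quasi-likelihood test, adjusted p under 0.05, 0 genes, 0.0%), and the smallest adjusted p was 0.959. The unadjusted p was under 0.05 for 503 genes, 3.07% of those tested, where 820 would be expected if no gene differed. With a library left out this count ran from 216 (without SEA replicate 1) to 1279 (without HT replicate 1), so that its place below or above the expected number depended on single libraries. Of these, 226 were higher in SEA (1.38%) and 277 were lower (1.69%). The groups did not overlap in CPM for 1634 genes (9.97%), 718 higher and 916 lower in SEA. By DESeq2 with the same adjustment 3 genes passed, all of them described below. The median 95% interval of a log2 fold change reached 0.53 to either side, or 0.43 for the 10261 genes of at least 10 CPM and 1.25 for the 946 genes under 1 CPM. All single-gene differences below are therefore given as values that did not pass the adjusted threshold.

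**Figure D1:**
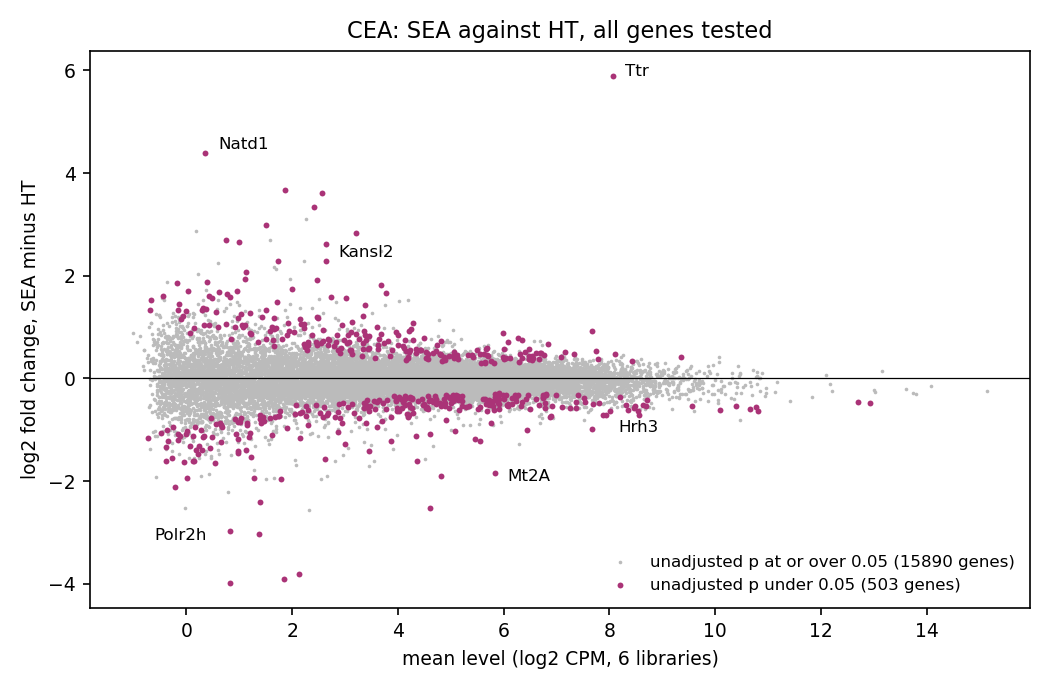
Log2 fold change of SEA against HT for each of the 16393 genes tested (vertical axis) over the mean level in log2 CPM (horizontal axis), with the 503 genes at an unadjusted p under 0.05 in purple. Points spread around 0 at every level, more widely at low levels, with Ttr (5.89) and Natd1 (4.39) the highest 2 points.

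Of the genes named for the smallest p-values in each direction, the histamine H3 receptor had the highest level. These genes had also to be without overlap between the groups, so that their separation describes the choice and is no further result. Hrh3 (ENSRNOG00000061153, chromosome 3, 175473078 to 175479395, minus strand) encodes a Gi-coupled receptor on nerve terminals that holds back the release of histamine and other transmitters. It had 289.8, 339 and 287 CPM in the HT libraries and 165, 213 and 181 CPM in the SEA libraries. Every SEA library lay below every HT library, with a log2 fold change of -0.71 (SE 0.16, 95% interval -1.07 to -0.35, edgeR adjusted p = 0.959). Leaving out any single library kept the value between -0.82 and -0.63.

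In the PVN Hrh3 had 143, 132 and 158 CPM in HT and 86.2, 116 and 93.1 CPM in SEA, without overlap (log2 fold change -0.55, SE 0.11). The test of the difference between the regions, -0.16 on the log2 scale, did not pass (edgeR adjusted p = 1.0). On a scale set over all 24 libraries, Hrh3 was at 200.7 to 247 CPM in the CEA of NC rats, 299 to 355 in HT, 178 to 231 in SEA and 202 to 255 in EA. The HT libraries were thus the highest of the 4 CEA groups, and those of the other 3 overlapped.

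A second receptor of the monoamine and acetylcholine list, which held 25 tested genes, was higher in SEA. Chrm2 (ENSRNOG00000046972, chromosome 4, 64088900 to 64091090, plus strand), the muscarinic M2 receptor, had 8.10, 4.88 and 8.20 CPM in HT and 14.2, 9.88 and 16 CPM in SEA. The groups did not overlap (log2 fold change 0.92, SE 0.28). Chrm2 and Hrh3 were the only members of this list at an unadjusted p under 0.05, where 1.38% of all genes were higher and 1.69% lower. The list's median log2 fold change was 0.02 (-0.08 without HT replicate 2 and 0.28 without SEA replicate 3), against -0.03 for all genes.

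Fgf1 (ENSRNOG00000013867, chromosome 18, 32273770 to 32359824, plus strand), an acidic fibroblast growth factor, had 9.78, 16.2 and 11.3 CPM in HT and 25.7, 21.5 and 31.7 CPM in SEA (log2 fold change 1.08, SE 0.24, 95% interval 0.53 to 1.64). Sema6d (ENSRNOG00000004812, chromosome 3, 116899878 to 116958050, plus strand), a membrane-bound semaphorin of axon guidance, had 86.7, 79.6 and 99.8 CPM in HT and 125.5, 129 and 166 CPM in SEA (log2 fold change 0.66, SE 0.16). The highest library of both genes was SEA replicate 3.

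Plagl1 (ENSRNOG00000025587, chromosome 1, 7252349 to 7259035, plus strand), an imprinted zinc finger transcription factor, was low in every HT library. It had 0.810, 2.01 and 2.54 CPM there and 5.47, 4.85 and 7.64 CPM in SEA (log2 fold change 1.73, SE 0.42, 95% interval 0.74 to 2.72). Its PVN value was 0.12 (SE 0.18), and the test of the difference between regions did not pass (1.61 on the log2 scale, edgeR adjusted p = 1.0). On the scale of all 24 libraries Plagl1 was at 4.18 to 6.04 CPM in NC, 0.849 to 2.64 in HT, 5.27 to 8.12 in SEA and 3.31 to 5.82 in EA, so that here the HT libraries were the low ones.

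Erbb4, the neuregulin receptor of interneurons, belonged to a list of 16 tested neuregulin, ErbB and neurotrophin genes. It was the only member at an unadjusted p under 0.05, where 1.38% of all genes were higher. It had 17.1, 7.38 and 14.7 CPM in HT and 24, 22.4 and 19.6 CPM in SEA (log2 fold change 0.75, SE 0.30). HT replicate 2 was the lowest of the 6 libraries, and without it the value was 0.47.

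Several of the genes named for being lower in SEA encode enzymes. Aadat (ENSRNOG00000011861, chromosome 16, 32832061 to 32868702, minus strand), which converts kynurenine into the glutamate receptor blocker kynurenic acid, had 18.1, 17.6 and 12 CPM in HT and 7.56, 9.19 and 7.87 CPM in SEA (log2 fold change -0.95, SE 0.21). Pnpla7 (ENSRNOG00000008190, chromosome 3, 2182957 to 2261878, plus strand), a lysophospholipase, had 37.7, 47.8 and 28.5 CPM in HT and 20.3, 19.9 and 24.3 CPM in SEA (log2 fold change -0.82, SE 0.21). In both cases the SEA libraries lay closer together than the HT libraries.

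Tbxas1 is thromboxane synthase and Aldh3b1 an aldehyde dehydrogenase. Tbxas1 had 3.67, 5.0 and 3.35 CPM in HT and 2.09, 2.02 and 1.48 CPM in SEA (log2 fold change -1.10, SE 0.29). For Aldh3b1 the values were 25.3, 31.9 and 27.7 CPM in HT and 20.1, 19.9 and 16.1 CPM in SEA (log2 fold change -0.60, SE 0.16).

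The gene listed as NEWGENE_2134 (ENSRNOG00000018426, chromosome 1, 80606638 to 80609921, minus strand), described in the table as apolipoprotein C1, a component of lipoproteins, was lower in SEA in both regions. In the CEA it had 9.22, 10.8 and 8.90 CPM in HT and 4.18, 6.42 and 3.41 CPM in SEA (log2 fold change -1.04, SE 0.27). The PVN values were 14.7, 11.8 and 9.46 CPM in HT and 4.08, 8.86 and 5.05 CPM in SEA (log2 fold change -1.01, SE 0.29). The PVN groups did not overlap.

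Hmgb3, a DNA-binding high mobility group protein, had estimates of opposite sign in the regions. In the CEA it had 12.6, 12.1 and 11 CPM in HT and 6.39, 6.42 and 8.09 CPM in SEA (log2 fold change -0.78, SE 0.19), whereas its PVN log2 fold change was 0.55 (SE 0.35). The test of the difference did not pass (-1.32 on the log2 scale, edgeR adjusted p = 1.0). The table places this entry on chromosome 17, and reads shared with other copies of the gene would make its count uncertain.

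**Figure D2:**
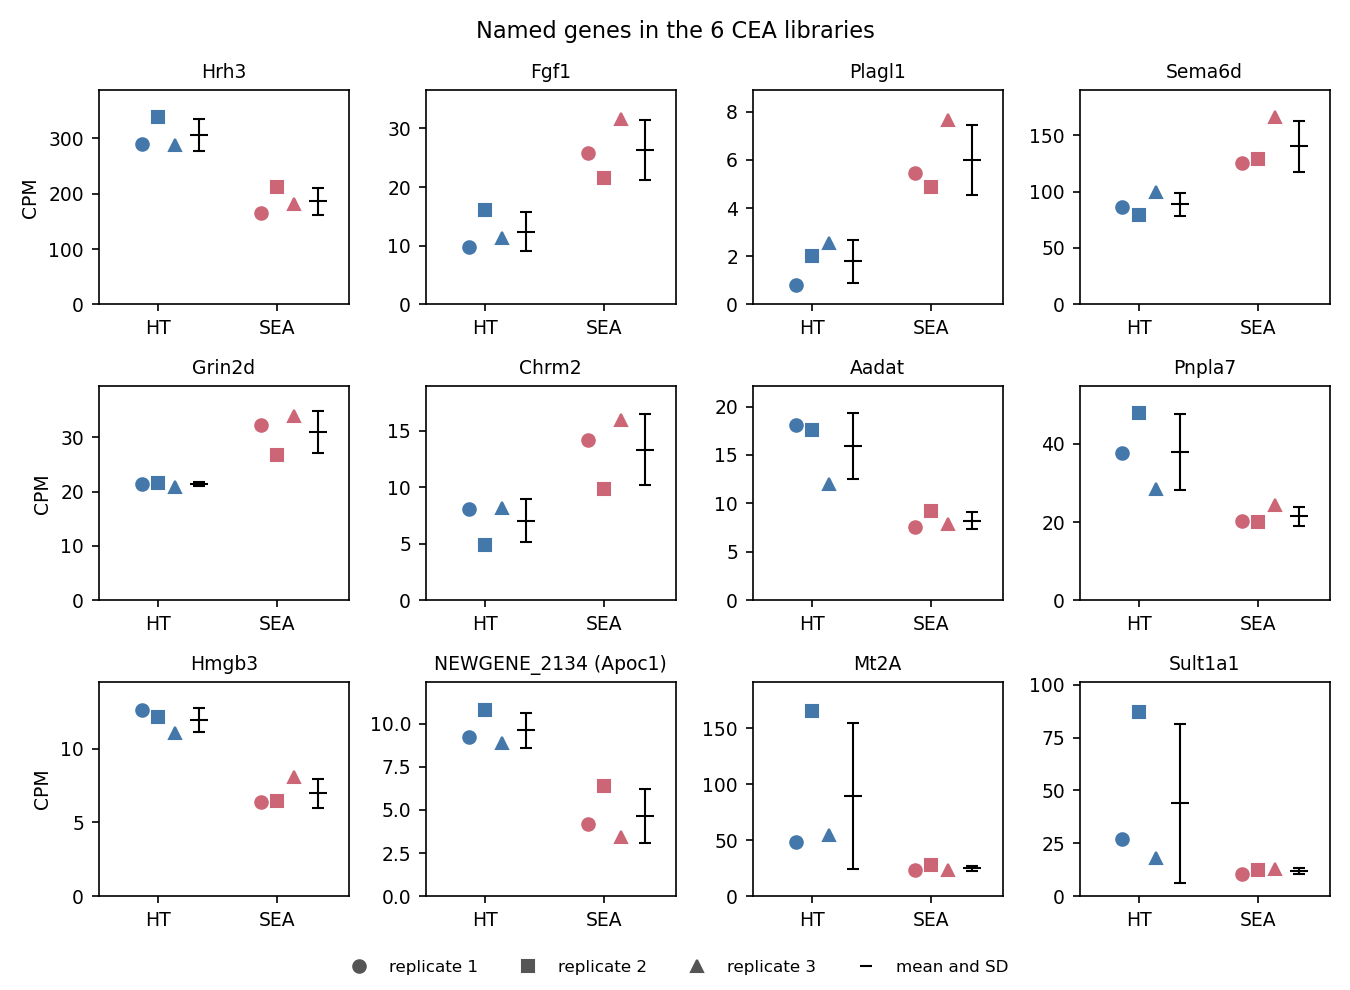
CPM of 12 named genes in each CEA library, HT in blue and SEA in red, with replicates 1 to 3 as circle, square and triangle and the mean and SD (n = 3) beside them. The HT and SEA points do not overlap, which was part of the choice for most of these genes, and in Mt2A and Sult1a1 the HT mean is pulled up by replicate 2.

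The remaining genes chosen by their p-values were small in level. Uprt, a uracil phosphoribosyltransferase homologue, was at 1.95 to 3.55 CPM in HT and 5.43 to 6.76 in SEA (log2 fold change 1.06, SE 0.29). Gatd1 ran from 6.22 to 7.97 CPM in HT and from 10.8 to 15.4 in SEA (0.84, SE 0.21), and AF529169, listed only as a cDNA sequence, ran from 0.671 to 0.996 and from 1.56 to 2.27 (1.30, SE 0.36). The small nucleolar RNA RF00289 was lower in SEA, at 0.737 to 1.16 CPM against 1.93 to 3.72 in HT (-1.41, SE 0.39).

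Several of the largest fold changes belonged to genes whose level also varied widely between libraries of other single groups. Natd1 (ENSRNOG00000050567, chromosome 10, 47157481 to 47164596, minus strand), which carries an N-acetyltransferase domain, had 1, 3 and 1 counts in the HT libraries and 32, 30 and 42 counts in the SEA libraries. Pooled, the 104 SEA counts against 5 HT counts gave a ratio of 22.0 after scaling (exact 95% interval 9.13 to 69.2, counting error only). Natd1 passed in DESeq2 (log2 fold change 4.51, SE 0.84, adjusted p = 0.000718) and not in edgeR (adjusted p = 0.959, over the alternatives up to 1.0).

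Low and high libraries were also found within other groups. Natd1 had 0, 35 and 2 counts in the NC libraries and 2, 2 and 0 in the EA libraries. In the PVN, 3 of the 12 libraries had over 20 counts, HT replicate 3 (44), SEA replicate 1 (32) and SEA replicate 3 (22), and the PVN fold change of SEA against HT was 0.14 (SE 1.16). Libraries with over 20 counts were thus found among NC, HT and SEA rats, and in the CEA comparison they were the SEA libraries.

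Kansl2 and the gene listed as LOC108348098, both also called by DESeq2, varied within other groups too. Kansl2 (ENSRNOG00000053541, chromosome 7, 140132469 to 140147984, minus strand), a subunit of the NSL histone acetyltransferase complex, had 40, 48 and 15 counts in HT and 158, 161 and 157 in SEA, but 12, 298 and 55 in the PVN NC libraries. Its log2 fold change was 2.28 (SE 0.41), with a DESeq2 adjusted p of 0.000329 and adjusted p-values up to 1.0 over the alternatives. LOC108348098 (ENSRNOG00000020117, chromosome 1, 220325352 to 220334615, plus strand), described as a homologue of breast cancer metastasis-suppressor 1 and named because DESeq2 called it, had 40, 31 and 13 counts in HT and 259, 132 and 106 in SEA (log2 fold change 2.61, SE 0.49, DESeq2 adjusted p = 0.000329, up to 1.0 over the alternatives). It ranged from 31 to 280 counts within the CEA EA libraries. The table gives this symbol to more than 1 gene, so its reads may be split.

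Vkorc1l1, a vitamin K epoxide reductase, and Polr2h, a subunit shared by the nuclear RNA polymerases, varied in the same way. Vkorc1l1 had 4, 3 and 14 counts in HT and 38, 42 and 47 in SEA, and 41, 4 and 49 in CEA NC (log2 fold change 2.69, SE 0.56). Polr2h had 10, 71 and 64 counts in HT and 7, 6 and 4 in SEA, and 3, 6 and 63 in CEA NC (log2 fold change -2.98, SE 0.73). In both genes, NC libraries lay on either side of the gap between HT and SEA.

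In the immune lists, the members at an unadjusted p under 0.05 were interferon-induced genes, all of them higher in SEA. Cells make these proteins when type I interferon or viral nucleic acid is sensed, with Irf7 a transcription factor that amplifies the response, Isg15 a ubiquitin-like modifier, Oas1a an enzyme that senses double-stranded RNA and Ifit2 a protein that binds viral RNA. Of 28 tested genes for acute phase, cytokine and interferon responses, 4 were higher at an unadjusted p under 0.05 and 0 were lower, beside 1.38% and 1.69% of all genes, with a median log2 fold change of 0.22. The count of 4 ran from 1 (without HT replicate 1 or SEA replicate 2) to 7 (without HT replicate 3) with a library left out.

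The 4 genes differed in how far they rested on SEA replicate 2. Isg15 (ENSRNOG00000021802, chromosome 5, 173624310 to 173626248, minus strand) had 3.80, 4.03 and 4.22 CPM in HT and 6.88, 10.5 and 5.64 CPM in SEA (log2 fold change 0.94, SE 0.28). Irf7 (ENSRNOG00000017414, chromosome 1, 214248837 to 214252456, minus strand) had 5.48, 5.06 and 7.39 CPM in HT and 9.52, 24.7 and 7.50 CPM in SEA (log2 fold change 1.22, SE 0.45). These 2 genes did not overlap between the groups, although the third replicates were nearly level in Irf7.

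Oas1a (ENSRNOG00000001369, chromosome 12, 41200718 to 41211909, plus strand) had 1.49, 1.34 and 1.85 CPM in HT and 2.70, 5.84 and 2.23 CPM in SEA (log2 fold change 1.20, SE 0.42). Ifit2 overlapped between the groups, with 6.66, 5.98 and 10.7 CPM in HT and 9.89, 17.3 and 14.4 CPM in SEA (log2 fold change 0.83, SE 0.30). SEA replicate 2 held the highest value of all 4 genes. Without it the log2 fold changes were 0.51 for Irf7, 0.64 for Isg15, 0.66 for Oas1a and 0.64 for Ifit2, and 1 member of the list was at an unadjusted p under 0.05.

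The upstream sequences of Irf7 and Oas1a are shown because the interferon-stimulated response element, the site bound by interferon-activated factors, lies next to the start of such genes. Sequences are the 250 bases before the RefSeq gene start in the GRCr8 assembly, matched by symbol, with its core (GAAA, any 2 bases, GAAA) in capitals on either strand (overlapping matches run together). Isg15 and Ifit2 were not matched.
Irf7, chr1:205800024-205800273, minus strand: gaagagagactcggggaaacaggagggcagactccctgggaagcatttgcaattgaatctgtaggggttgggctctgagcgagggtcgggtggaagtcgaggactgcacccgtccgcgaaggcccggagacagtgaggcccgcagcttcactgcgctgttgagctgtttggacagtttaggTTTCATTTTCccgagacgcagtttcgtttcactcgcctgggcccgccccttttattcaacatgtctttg
Oas1a, chr12:41330216-41330465, plus strand: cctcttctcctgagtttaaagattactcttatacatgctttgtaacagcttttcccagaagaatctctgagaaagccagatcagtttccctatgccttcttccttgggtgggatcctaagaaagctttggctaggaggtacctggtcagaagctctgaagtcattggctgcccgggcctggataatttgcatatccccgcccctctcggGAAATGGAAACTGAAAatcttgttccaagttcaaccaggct
Irf7 held 1 match, on the opposite strand, starting 69 bases before the gene start. Oas1a held 2 overlapping matches, starting 41 and 35 bases before it. Of 33469 RefSeq promoters of the same length, 3.41% held at least 1 match.

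In the PVN, Irf7 and Oas1a had higher values in SEA and were again highest in SEA replicate 2. Irf7 had 6.36, 5.65 and 4.57 CPM in PVN HT and 10.5, 24 and 10.03 CPM in PVN SEA (log2 fold change 1.42, SE 0.34). Oas1a had 1.18, 1.48 and 1.13 CPM in PVN HT and 2.82, 7.70 and 2.46 CPM in PVN SEA (log2 fold change 1.77, SE 0.46). The groups did not overlap for either gene. Isg15 and Ifit2 overlapped in the PVN, Isg15 with 5.20 to 8.07 CPM in HT and 6.88 to 15.2 in SEA (0.54, SE 0.31) and Ifit2 with 8.96 to 12.5 CPM and 8.96 to 17.5 CPM (0.25, SE 0.25). On the scale of all 24 libraries, Irf7 in the CEA was at 2.39 to 11.7 CPM in NC and 3.28 to 6.07 in EA, beside 5.32 to 7.69 in HT and 7.96 to 26.8 in SEA, so that the NC range reached into that of SEA.

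Of the 28 genes, 21 were positive and 7 negative, the lowest being Ptges, a prostaglandin E synthase, at -0.81 (SE 0.47), and the median of 0.22 was 0.38 without HT replicate 3. Further interferon-induced genes had positive estimates with unadjusted p-values above 0.05, among them Mx1 (1.44, SE 0.74), Ifit3 (1.07, SE 0.51) and Bst2 (0.55, SE 0.33). The cytokine genes Il1b, Il6, Tnf and Ccl2 were too low to be tested. Socs3, an inhibitor of cytokine signalling, and the transcription factor Stat3 were at 0.15 (SE 0.59) and 0.04 (SE 0.14). Of 30 tested histocompatibility and antigen processing genes, 0 were at an unadjusted p under 0.05 in either direction. The class I gene LOC103690108 (ENSRNOG00000047706, chromosome 20, 3791407 to 3794027, minus strand) had 396, 896 and 479 counts in HT and 0, 4 and 585 in SEA, so the SEA libraries were split. It had 0 counts in all 3 NC libraries of the CEA and 301 to 481 in those of EA, and in the PVN 0, 1 and 1146 counts in SEA and 587 to 1225 in HT. The SEA replicates that were low and high thus bore the same numbers in both regions. LOC100364500, of the same family of near-identical genes, had 1.37, 6.35 and 3.64 CPM in HT and 0.0614, 0.462 and 7.2 CPM in SEA.

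Metallothionein 2 was among the genes induced by glucocorticoids that were lower in SEA. Metallothioneins bind zinc and copper, and stress hormones, metals and inflammation raise them. Mt2A (ENSRNOG00000043098, chromosome 19, 11307967 to 11308740, minus strand) had 48.5, 165 and 54.5 CPM in HT and 23.7, 27.5 and 23.7 CPM in SEA. The SEA libraries were close together and below all HT libraries (log2 fold change -1.84, SE 0.46, 95% interval -2.91 to -0.77, edgeR adjusted p = 0.959). Without HT replicate 2 the value was -1.04.

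The 250 bases before the RefSeq start of Mt2A are given for their metal response elements, the sites through which zinc acts on metallothionein genes, with the cores TGCGCNC and TGCACNC in capitals on either strand.
Mt2A, chr19:10838709-10838958, minus strand, GRCr8: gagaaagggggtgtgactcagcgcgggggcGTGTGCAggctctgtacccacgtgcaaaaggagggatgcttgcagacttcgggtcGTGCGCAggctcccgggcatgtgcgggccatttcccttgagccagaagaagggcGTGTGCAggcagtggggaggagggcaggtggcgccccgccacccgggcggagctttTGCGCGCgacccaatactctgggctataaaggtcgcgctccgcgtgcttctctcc
There were 4 matches, starting 220, 165, 111 and 55 bases before the start. Of all promoters of this length, 20.6% held at least 1.

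Sult1a1, a sulfotransferase of catechols and phenols, followed Mt2A. It had 27.0, 87.1 and 17.8 CPM in HT and 10.4, 12.5 and 12.6 CPM in SEA (log2 fold change -1.89, SE 0.55), and -0.92 without HT replicate 2. In the PVN the log2 fold changes were -1.26 for Mt2A (SE 0.55) and -1.56 for Sult1a1 (SE 0.48). PVN HT replicate 3 was the high library there, with 57.0 CPM of Mt2A and 51.3 of Sult1a1, against 13.9 and 13.1 CPM and 17.6 and 11.6 CPM in the other HT replicates.

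Mt2A and Sult1a1 were the only members at an unadjusted p under 0.05 among 25 tested glucocorticoid-induced genes, whose median log2 fold change was -0.28. Of all genes tested, 1.69% were lower at that threshold. The list as a whole did not separate the groups, and 1 library of each was high. Its summed level was 2209 CPM in HT replicate 2 and 1803 in SEA replicate 3, and 753 to 907 CPM in the other 4 libraries. Sgk1, a kinase that corticosteroids induce, had 52.7, 407 and 65.2 CPM in HT and 80.4, 113 and 474 CPM in SEA. Fkbp5, the co-chaperone that lowers glucocorticoid receptor sensitivity, had 88.9, 154 and 63.0 CPM in HT and 66.9, 84.6 and 52.1 CPM in SEA. Without HT replicate 2 the list's median turned to 0.36, with 2 members higher and 2 lower at that threshold. Without HT replicate 1 there were 4 lower, in a fit with 1279 of all genes at that threshold in either direction. The median was -0.57 without HT replicate 1, -0.59 without SEA replicate 3 and 0.012 with the replicate number as a block.

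On the scale of all 24 libraries, Mt2A in the CEA was at 26.1 to 36.8 CPM in NC, 50.9 to 173 in HT, 25.2 to 29.9 in SEA and 34.5 to 103.8 in EA. Sult1a1 was at 7.10 to 7.38 CPM in NC, 18.6 to 91.5 in HT, 11.2 to 13.6 in SEA and 13.2 to 48.3 in EA. In both genes HT held the highest library. The comparisons with NC and EA were not tested here.

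Genes of protein synthesis and mitochondrial respiration were lower in SEA in the median. Ribosomal protein genes build the cytosolic ribosome, and oxidative phosphorylation genes the respiratory chain and ATP synthase. Of 70 tested ribosomal protein genes, 66 had a negative fold change, 10 were lower at an unadjusted p under 0.05 and 0 were higher, and the median log2 fold change was -0.44. Over all genes tested, 53.9% were negative and 1.69% were lower at that threshold. Of 73 tested nuclear oxidative phosphorylation genes, 67 were negative, 4 were lower at that threshold (Cox6a1, Cox8a, Uqcr11 and Atp5f1e) and 0 were higher, with a median of -0.29.

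HT replicate 2 was the highest library in both lists. Summed over the ribosomal list, levels were 13527, 24008 and 15191 CPM in HT and 12629, 13058 and 12655 CPM in SEA. For the nuclear oxidative phosphorylation list the sums were 12178, 19724 and 15370 CPM in HT and 13364, 12431 and 13575 CPM in SEA. Without HT replicate 2 the medians were -0.15 and -0.04, with 6 and 2 members lower at an unadjusted p under 0.05. Without SEA replicate 3 the medians were -0.44 and -0.29, with 3 and 0 members lower at that threshold. Without HT replicate 1, by contrast, 39 ribosomal and 37 oxidative phosphorylation genes were lower at that threshold. That fit had 1279 of all genes at the threshold in either direction.

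In single members the other HT libraries lay above SEA as well. Rpl29 (ENSRNOG00000011138), of the large ribosomal subunit, had 220.1, 372 and 279.6 CPM in HT and 174, 166 and 193 CPM in SEA (log2 fold change -0.71, SE 0.21). Cox8a (ENSRNOG00000021177), a subunit of cytochrome c oxidase, had 446, 489 and 495 CPM in HT and 372, 357 and 342 CPM in SEA (log2 fold change -0.42, SE 0.13). Many ribosomal genes have near-identical copies, and how reads with several matches were counted is not stated, so their counts are uncertain.

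In the PVN the same lists were near 0, with medians of -0.03 for both the ribosomal and the nuclear oxidative phosphorylation genes. The tests of the difference between regions did not pass for Rpl29 (-0.77 on the log2 scale) or Cox8a (-0.39), each with an edgeR adjusted p of 1.0.

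The mitochondrial genome's own genes were looked at after their values were seen. All 13 protein-coding genes were lower in SEA, with a median log2 fold change of -0.27, and 2 were at an unadjusted p under 0.05. Among all genes tested, 53.9% were negative and 1.69% were lower at that threshold. Mt-nd3, a subunit of complex I, had 1883, 2020.3 and 2347 CPM in HT and 1356, 1465 and 1434 CPM in SEA (log2 fold change -0.55, SE 0.15). Mt-co2, of cytochrome c oxidase, had 1648, 2830.1 and 2082 CPM in HT and 1235, 1424 and 1561 CPM in SEA (log2 fold change -0.64, SE 0.23, and -0.40 without HT replicate 2). The summed level of the 13 genes was lowest in HT replicate 2 among the HT libraries, and without it the median was -0.45 and 5 genes were lower at that threshold, while without HT replicate 3 it was -0.14.

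The level of genes in HT replicate 2 also moved with their length. Genes under 1 kb in that library were at a median of 0.22 above the 6-library mean on the log2 scale, and genes over 4 kb at 0.22 below it, while the other libraries stayed between -0.09 and 0.11. The median log2 fold change of SEA against HT was -0.15 for the 2203 genes under 1 kb, of which 95 were lower and 20 higher at an unadjusted p under 0.05. It was 0.07 for the 3314 genes over 4 kb, with 24 lower and 58 higher. Without HT replicate 2 these medians were -0.06 and -0.01. Ribosomal and respiratory chain genes are short, and the part of length in their values was not tested.

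**Figure D3:**
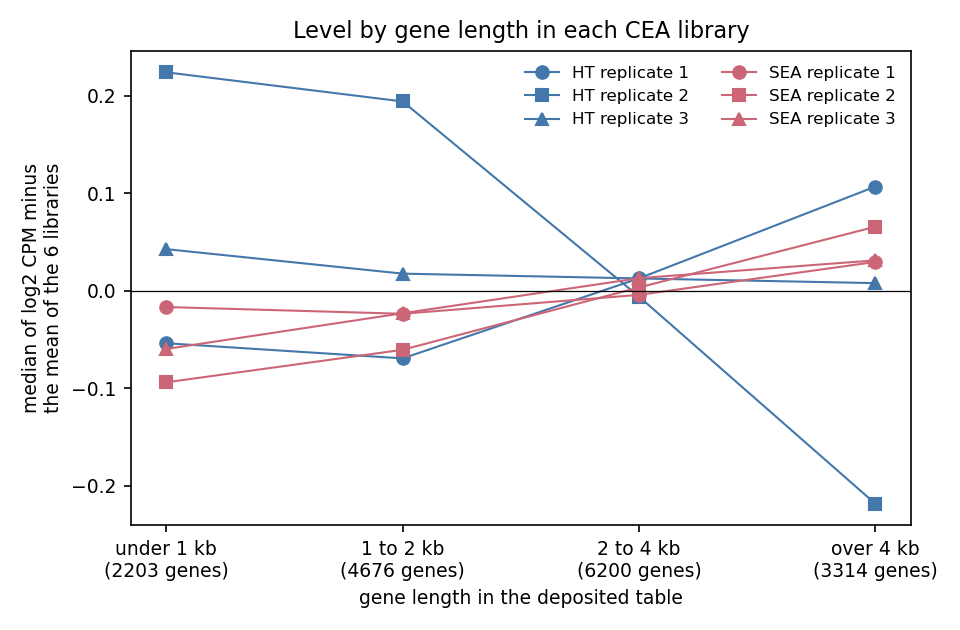
Median over genes of log2 CPM minus the mean of the 6 CEA libraries (vertical axis), for 4 classes of gene length in the deposited table (horizontal axis), HT in blue and SEA in red. HT replicate 2 runs from 0.22 for genes under 1 kb to -0.22 for genes over 4 kb, and the other 5 libraries stay between -0.09 and 0.11.

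The identity of the dissected tissue was read from markers. CEA genes were present in every library but at uneven levels. Prkcd, which marks a class of CEA neurons and also much of the thalamus, had 19.2, 317 and 496 CPM in HT and 152, 44.3 and 518 CPM in SEA. Sst had 152, 237 and 142 CPM in HT and 189.8, 175 and 102 CPM in SEA. Crh was low, with 0.560, 1.16 and 0.866 CPM in HT and 2.95, 1.68 and 0.594 CPM in SEA (log2 fold change 1.02, 95% interval -0.36 to 2.40, and 0.41 without SEA replicate 1), so that the groups overlapped.

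Levels of neighbouring regions moved between libraries of the same group. Summed over 17 striatal projection neuron markers, HT replicate 1 had 10075 CPM and SEA replicate 2 had 9452 CPM, and the other 4 libraries had 3425 to 5947 CPM. Those 2 libraries also had the lowest thalamic sums (176 and 245 CPM, against 509 to 1283 in the others) and the lowest Prkcd. In bulk tissue, fewer cells of a type and less RNA per cell cannot be told apart. None of the 17 striatal and 15 thalamic markers tested was at an unadjusted p under 0.05 between SEA and HT, while 3 striatal markers were lower without SEA replicate 2 and 1 thalamic marker was higher without HT replicate 2.

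The list of 27 tested CEA neuron genes held 0 members at an unadjusted p under 0.05 and had a median log2 fold change of -0.06 (0.12 without SEA replicate 3, with 2 members higher at that threshold). Penk, the precursor of enkephalins, had 998, 1089.7 and 724 CPM in HT and 617, 881 and 323 CPM in SEA (log2 fold change -0.63, 95% interval -1.44 to 0.19). With a library left out it ran from -0.99 (without SEA replicate 2) to -0.32 (without SEA replicate 3). Pdyn, of the dynorphins, had 187, 176 and 122 CPM in HT and 181, 176 and 79.0 CPM in SEA (-0.16, interval -0.91 to 0.60). Tac1, of substance P, was at -0.31 (interval -1.28 to 0.66), Nts, of neurotensin, at -0.16 (-1.38 to 1.05) and Cartpt, a peptide of appetite and stress, at 0.47 (-0.36 to 1.31). Without HT replicates 1 and 2 in turn Cartpt was at 0.20 and 0.75, and Nts was at 0.52 without HT replicate 2. The mu opioid receptor gene Oprm1 had 3.92, 1.71 and 7.68 CPM in HT and 6.39, 5.43 and 8.98 CPM in SEA (0.64, interval -0.52 to 1.80), and its value ran from 0.26 (without HT replicate 2) to 1.29 (without HT replicate 3). These intervals leave room for changes larger than 1 log2 unit in most of the peptides.

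Genes of inhibitory signalling had mostly positive fold changes, as did glutamate receptor genes, while 53.9% of all genes tested were negative. Of 24 tested genes for GABA synthesis, transport and receptors, 19 had a positive fold change and the median was 0.24. The GABA-synthesizing enzymes Gad1 and Gad2 were at 0.19 (95% interval -0.31 to 0.69) and 0.29 (-0.29 to 0.88), and at 0.017 and 0.091 without HT replicate 3. Without HT replicate 2 the list's median was 0.12.

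Of 24 glutamate receptor genes, 17 had a positive fold change and the median was 0.15 (-0.024 without HT replicate 2). Grin2d alone was at an unadjusted p under 0.05, where 1.38% of all genes were higher. With a library left out, 1 to 3 of the 24 were higher at that threshold. Grin2d (ENSRNOG00000021063, chromosome 1, 101820461 to 101856881, minus strand) encodes the GluN2D subunit of NMDA receptors. It had 21.4, 21.7 and 20.9 CPM in HT and 32.3, 26.6 and 33.8 CPM in SEA (log2 fold change 0.54, SE 0.15), and -0.04 (SE 0.07) in the PVN, and the test of the difference did not pass (0.58, edgeR adjusted p = 1.0). Its HT libraries differed by less than 1 CPM. On the scale of all 24 libraries the NC range was 20.6 to 29.6 CPM and the EA range 33 to 42.4, against 21.8 to 22.7 in HT and 28.9 to 36 in SEA.

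The immediate early gene Fos, a marker of recent neuronal activity, had 3.74, 5.0 and 6.59 CPM in HT and 7.19, 6.65 and 13.7 CPM in SEA. The groups did not overlap (6.59 against 6.65 CPM at the nearest, log2 fold change 0.84, SE 0.35), and the value was 0.44 without SEA replicate 3. It was the only one of 26 immediate early genes at an unadjusted p under 0.05, where 1.38% of all genes were higher, and the list's median was -0.09. On the scale of all 24 libraries Fos was at 10.9 to 22.8 CPM in NC, 3.92 to 6.85 in HT, 7.22 to 14.6 in SEA and 3.82 to 7.42 in EA.

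**Figure D4:**
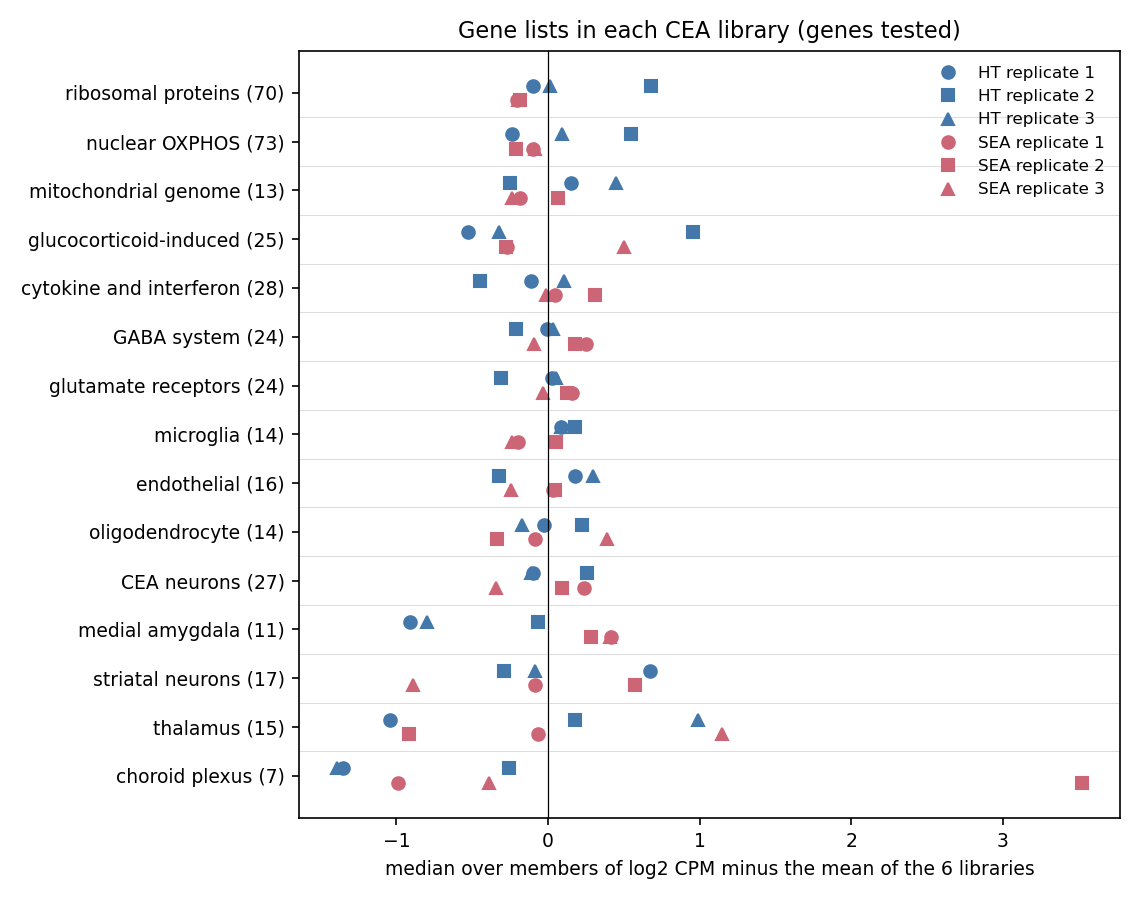
For each gene list (rows, with the number of genes tested), the median over members of log2 CPM minus the mean of the 6 CEA libraries (horizontal axis), HT in blue and SEA in red, replicates 1 to 3 as circle, square and triangle. The ribosomal, nuclear OXPHOS (oxidative phosphorylation) and glucocorticoid-induced lists have HT replicate 2 farthest to the right, and the choroid plexus list has SEA replicate 2 at 3.52.

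Glial and vascular genes gave single members at an unadjusted p under 0.05, where 1.69% of all genes were lower and 1.38% higher. The 15 astrocyte markers had 6 positive and 9 negative fold changes, with a median of -0.03, beside -0.03 for all genes. The 14 microglia markers had 2 positive and 12 negative, with a median of -0.17. Of 15 astrocyte markers, Aldh1l1, a folate enzyme, had 24.6, 32.4 and 25.3 CPM in HT and 17.5, 16.3 and 21.4 CPM in SEA (log2 fold change -0.58, SE 0.18). Aldoc, a glycolytic aldolase, had 1254, 2152 and 1374 CPM in HT and 1095, 1071 and 1132 CPM in SEA (-0.54, SE 0.22). Of 14 microglia markers, C1qb, of the first complement component, had 52, 106 and 53.1 CPM in HT and 37.0, 42.4 and 36.0 CPM in SEA (-0.87, SE 0.28). HT replicate 2 was the highest library for all 3, and without it the values were -0.44 for Aldh1l1, -0.25 for Aldoc and -0.44 for C1qb. With a library left out, 0 to 3 astrocyte and 1 to 4 microglia markers were lower at that threshold, 3 and 4 of them without HT replicate 1. That fit had 1279 of all genes at the threshold in either direction.

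Of 16 endothelial and vessel markers, Esam, an adhesion molecule of endothelial junctions, and Kcnj8, a potassium channel of pericytes, were lower in SEA, by -0.45 (SE 0.17) and -0.44 (SE 0.18) on the log2 scale, and Kcnj8 was at -0.27 without HT replicate 1. These were the 2 members at an unadjusted p under 0.05, where 1.69% of all genes were lower. This count of 2 was 6 without HT replicate 2, with a list median of -0.31 instead of -0.15. It was 0 without HT replicate 3 or SEA replicate 3, with medians of -0.03 and -0.05. With a library left out, 216 to 1279 of all genes were at that threshold in either direction. Among 28 collagen, laminin and fibronectin genes, Fn1 had 84.0, 90.1 and 81.2 CPM in HT and 66.2, 65.7 and 65.6 CPM in SEA (log2 fold change -0.37, SE 0.12), and Lamb2 was at -0.50 (SE 0.18), or -0.30 without HT replicate 2. Col8a1 was higher (2.66, SE 0.92) through SEA replicate 2, which had 7.69 CPM against 0.366 to 1.19 in the other 5 libraries, and without it the value was 0.92.

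SEA replicate 2 held a strong choroid plexus signal. The choroid plexus is the ventricular epithelium that makes cerebrospinal fluid, and transthyretin (Ttr) is its most abundant product. The summed level of 7 tested choroid plexus markers was 1689 CPM in that library and 11.5 to 30.7 CPM in the other 5. On the scale of all 24 libraries the sum was 12.1 to 32.3 CPM in HT, 12.6 to 1834 in SEA, 19.7 to 1090 in NC and 14.6 to 394 in EA, so that other CEA groups held such libraries too. Ttr had 3.61, 15.9 and 7.16 CPM in HT and 4.85, 1559 and 14.5 CPM in SEA. Clic6 and Slc4a5, a chloride channel protein and a bicarbonate transporter, were also at an unadjusted p under 0.05 in the direction of SEA, and all 3 overlapped between the groups. Without SEA replicate 2 the list's median log2 fold change was 0.12 instead of 2.83, those of Ttr, Clic6 and Slc4a5 were 0.12, 0.33 and 0.31, and 0 members were at that threshold. SEA replicate 2 was also the highest library for the interferon genes, and the part of the choroid plexus in their values was not tested.

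Of 11 tested medial amygdala and bed nucleus genes, 10 were positive, with a median of 0.74, while their summed level was 311, 209 and 200.2 CPM in HT and 227, 291 and 132 CPM in SEA, so that the sums overlapped. Esr1, the estrogen receptor alpha, was its only member at an unadjusted p under 0.05, with 0.996, 1.10 and 0.693 CPM in HT and 1.72, 2.08 and 1.78 CPM in SEA (log2 fold change 1.0, SE 0.34). Without HT replicate 2 the members at that threshold were 5, all higher, and the median was 1.24. Across the fits with a library left out, 216 to 1279 of all genes were at that threshold in either direction. Behind the Esr1 values were 12 to 18 counts per HT library and 24 to 36 per SEA library.

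Of 28 tested cholesterol and fatty acid synthesis genes, 22 were positive with a median of 0.10 (0.012 without SEA replicate 3), and Mvk, mevalonate kinase, was the only member at an unadjusted p under 0.05 (-0.47, SE 0.17). The shares over all genes were 53.9% negative and 1.69% lower at that threshold. The lists without any member at an unadjusted p under 0.05 numbered 16 of 32, with medians from -0.28 (excitatory neurons) to 0.47 (hypothalamic markers). The hypothalamic list depended on HT replicate 2, without which 5 of its 10 members were higher at that threshold and the median was 1.36. The count over all genes at that threshold also moved, from 216 to 1279 with a library left out. Besides those named above, the lists without such a member were opioid peptides and receptors, endocannabinoid signalling, the CRH system and corticosteroid receptors, heat shock genes, clock genes, oligodendrocyte and precursor markers, blood cells, pallidal and cholinergic markers and cell division genes.

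Whether the sham effect differed between the regions was tested on 12 libraries as an interaction, whose p-values take the CEA and PVN libraries as independent. This independence is an assumption. Deviations from the group mean on the log2(CPM + 1) scale, over 15982 genes, correlated at 0.12 between CEA and PVN HT replicate 1, at 0.24 between CEA HT replicate 2 and PVN HT replicate 3 and at 0.19 between CEA HT replicate 3 and PVN HT replicate 2, so that each CEA HT library was nearest to a different PVN library, the one beside it in the deposited table. For SEA, whose same-numbered libraries stand side by side, the values were 0.23, -0.02 and 0.03. Genes are not independent replicates, and no pairing was taken from these values or from the order of columns. Of 17249 genes, 0 passed (edgeR adjusted p under 0.05, 0.0%; smallest adjusted p 1.0), and 437 were at an unadjusted p under 0.05, where 862 would be expected. DESeq2 called 1, Rlim, a ubiquitin ligase named for that call, which had 114, 4 and 4 counts in CEA SEA, 1, 0 and 0 in CEA HT and 9, 50 and 159 in PVN HT.

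Of the 503 genes at an unadjusted p under 0.05 in the CEA, 480 were also tested in the PVN, and 353 of them (73.5%) had the same sign there, beside 60.4% of all 15982 genes tested in both. At an unadjusted p under 0.05 in both regions there were 48 genes with the same sign and 6 with opposite signs. Hrh3, apolipoprotein C1, Pnpla7, Sema6d, Irf7, Oas1a, Sult1a1, Aldoc and Aldh1l1 were among the named genes in the first set. Genes are not independent replicates, and the SEA replicates split by the same numbers in both regions for LOC103690108, so these shares are descriptions and not evidence from separate animals.

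**Figure D5:**
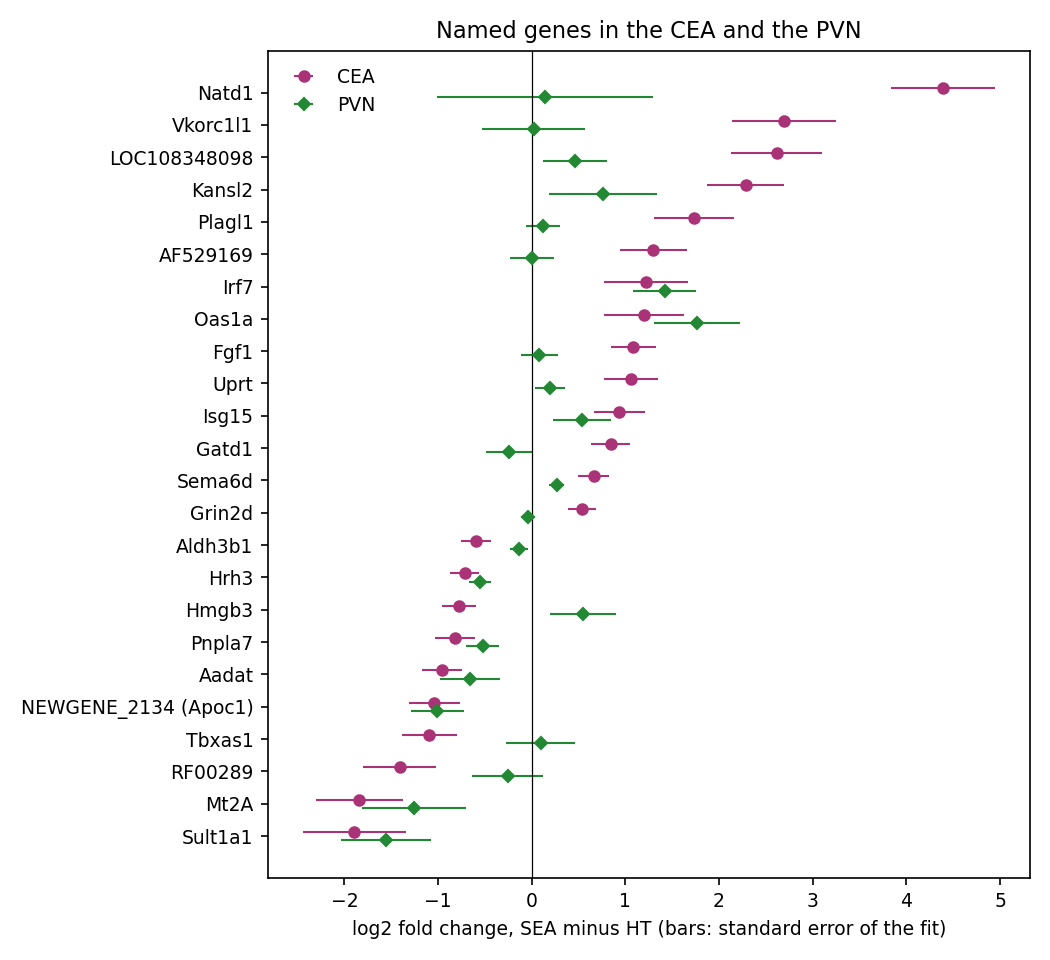
Log2 fold change of SEA against HT in the CEA (purple circles) and the PVN (green diamonds) for 24 named genes, with bars for the standard error of each fit. Hrh3, apolipoprotein C1, Sult1a1 and Mt2A lie to the left of 0 in both regions and Irf7 and Oas1a to the right, while Natd1 and Fgf1 are to the right in the CEA and at 0.14 and 0.08 in the PVN.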

How the data were processed

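The authors deposited a table of whole-number read counts per gene, without normalization, for 24 strand-specific RNA libraries. By the study's methods and the submitters' processing notes, HISAT2 aligned the filtered reads and featureCounts assigned them to genes, with no version stated. The table names no build. Its largest gene end on chromosome 1 (282724300) fits Rnor_6.0, not the mRatBN7.2 of the methods, and coordinates are as deposited. It held 35032 genes, and 1 stray header line was left out.

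The 6 CEA libraries were fitted in R 4.3.3 by quasi-likelihood in edgeR 4.0.16 after filterByExpr and TMM scaling (two-sided, Benjamini-Hochberg adjustment over all genes tested, threshold 0.05). CPM are TMM-scaled, and log2 CPM use a prior count of 2. SE are of the log2 fold change. The interaction used the 12 HT and SEA libraries of both regions. DESeq2 1.42.0, RLE scaling, other filters, all 12 CEA libraries, a replicate block and each library left out were alternatives. Library shares were tested by exact permutation. Values for NC and EA come from a TMM scale over all 24 libraries. The test was run on simulated counts first. No 2 libraries held identical values.

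Named genes were up to 10 per direction with the smallest unadjusted p, a symbol, a mean of at least 1 CPM and no overlap; list members at an unadjusted p under 0.05 or among the 3 highest per kilobase; and a fixed set of CEA and stress genes. The top members by level are named only where a result turns on them. Genes listed more than once entered a list by the entry with the most counts. The members, lists and rules were chosen with earlier results of these data known. Promoter sequences are from RefSeq (GRCr8). The study itself used DESeq2 at an unadjusted p under 0.05. The values of 1 list member are not reported here.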

Additional observations from a re-analysis of the deposited data

How the results depend on the processing

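With 3 libraries a group, wide intervals and single libraries limit these results, and low counts add to this (the median 95% half-width was 1.25 under 1 CPM and 0.43 at 10 CPM or more). The count of genes at an adjusted p under 0.05 stayed at 0 in every edgeR alternative and was 3 by DESeq2, and 1 by DESeq2 for the interaction. At an unadjusted p under 0.05 the count was 943 with all 12 CEA libraries in the fit, and 216 (without CEA SEA replicate 1) to 1279 (without CEA HT replicate 1) with a library left out. For the interaction that range was 290 (without PVN HT replicate 1) to 1398 (without CEA HT replicate 1), with 791, 878 and 681 without CEA HT replicates 2 and 3 and CEA SEA replicate 2. The cause was not tested.

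Of 33 list medians, 20 changed sign under some alternative. With 1 library left out, list medians ran from -0.024 to 0.25 for glutamate receptors, -0.23 to 0.24 for the CRH system, -0.20 to -0.029 for immediate early genes, -0.069 to 0.033 for histocompatibility genes, -0.12 to 0.040 for clock genes, -0.22 to 0.041 for astrocyte, -0.29 to -0.12 for microglia, 0.12 to 3.70 for choroid plexus, -0.69 to -0.024 for blood, -0.59 to 0.73 for excitatory neuron, 0.073 to 1.36 for hypothalamic and 0.51 to 1.24 for medial amygdala genes. Fold changes that turned sign ran from -0.34 to 0.14 for Pdyn, -0.85 to 1.92 for Sgk1, -0.35 to 0.089 for Sst, -0.76 to 0.021 for Tac1, -0.62 to 0.52 for Nts, -1.5 to 0.51 for Prkcd and -3.80 to 0.0065 for LOC100364500. Of 958 single-gene values under the alternatives, 943 kept their direction.

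Same-numbered HT and SEA libraries deviated from their group means with correlations of 0.08, -0.14 and 0.16, so the numbers do not pair them. With the replicate block, 0 genes passed and 428 were at an unadjusted p under 0.05, and the log2 fold change of Prkcd was 0.057 instead of -0.22. HT replicate 1 correlated best with SEA replicate 2, so not every library matched its own number. A replicate block of same-numbered CEA and PVN libraries, added after seeing the data, left 0 interaction genes past the threshold and 341 at an unadjusted p under 0.05. Deviations of the same-numbered HT libraries 2 and 3 correlated at -0.09 and -0.25 across the regions. The block therefore cannot check whether the libraries of the regions are independent.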
